A study of Mus musculus with 6 samples.

Results

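The BPI-fold genes measured here were Bpifb9b, Bpifb9a, Bpifb1, Bpifb2, Bpifb3, Bpifb4, Bpifb5, Bpifb6 and Bpifa1, 9 of the 24661 genes in the files. They were chosen by name, as relatives of Bpifb9b, the gene with the highest count in every mouse, so the rank and size of that count are a description and were not tested. All 9 members had at least 1 count in some mouse and entered the test of 22152 genes. RNA-Seq libraries were made at postnatal day 21 from olfactory mucosa, labelled as olfactory epithelium, of 6 mice labelled C57BL/6. There were 3 mice per genotype, wild-type and RTP1,2DKO, and values per mouse are given in replicate order. RTP1,2DKO mice lack both receptor transporting proteins, RTP1 and RTP2. Their alleles were made by gene targeting in 129/B6 ES cells and carry a loxP site in place of Rtp1 and a puromycin resistance gene in place of Rtp2, and the line was later backcrossed to C57BL/6. The methods describe dissection of the entire mucosa from sex-matched littermates, so glands, respiratory epithelium, neurons and supporting cells were all in the sample. In such tissue, fewer cells of a type and less RNA per cell cannot be told apart. The comparison asks whether these secretory genes differed between genotypes, and how far their level varied from mouse to mouse.

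BPI-fold proteins are relatives of the bactericidal/permeability-increasing protein and share its lipid-binding fold. Most are secreted by glands and surface epithelia of the nose, mouth and airways, where they are studied for roles in mucosal defence and in the handling of small hydrophobic molecules. Bpifa1 encodes SPLUNC1, an abundant airway secretion, and Bpifb1 encodes LPLUNC1, a product of mucous cells. Bpifb9a and Bpifb9b are the mouse counterparts of vomeromodulin, a secretion of rat nasal glands that has been proposed to carry pheromones. Bpifb3 and Bpifb4 were first described as RYA3 and RY2G5, transcripts of olfactory tissue, and Bpifb2, Bpifb5 and Bpifb6 are further members of the long branch of the family.

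All 9 genes lie on the plus strand of chromosome 2 in GRCm38, within a run of 13 Bpif genes that spans chr2:153875045-154320646 (445602 bases). In chromosomal order the members are Bpifb2, Bpifb6, Bpifb3, Bpifb4, Bpifa1, Bpifb1, Bpifb5, Bpifb9a and Bpifb9b. Bpifb9a (chr2:154257854-154271245) and Bpifb9b (chr2:154307227-154320646) close the run and have up to 15 exons each, and Bpifb5 (chr2:154223742-154240902) precedes them. The 250 bases before the RefSeq start are printed here for the genes that gave the 3 highest levels per length, and for Bpifb5, whose level varied between mice like that of Bpifb9a and Bpifb9b. All are RefSeq sequence of GRCm38.p6, plus strand, with the letters TATAAA in capitals. The windows are chr2:154306994-154307243 for Bpifb9b, chr2:154257629-154257878 for Bpifb9a, chr2:154142630-154142879 for Bpifa1 and chr2:154223492-154223741 for Bpifb5.
Bpifb9b: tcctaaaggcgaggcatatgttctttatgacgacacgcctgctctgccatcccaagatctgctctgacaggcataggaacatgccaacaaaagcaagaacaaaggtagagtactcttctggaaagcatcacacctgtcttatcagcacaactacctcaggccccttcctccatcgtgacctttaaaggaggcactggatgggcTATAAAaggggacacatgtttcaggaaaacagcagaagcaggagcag
Bpifb9a: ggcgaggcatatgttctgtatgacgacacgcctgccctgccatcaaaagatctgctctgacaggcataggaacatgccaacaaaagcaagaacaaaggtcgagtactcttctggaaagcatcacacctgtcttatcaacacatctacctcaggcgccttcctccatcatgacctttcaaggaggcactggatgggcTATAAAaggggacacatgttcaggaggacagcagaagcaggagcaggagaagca
Bpifa1: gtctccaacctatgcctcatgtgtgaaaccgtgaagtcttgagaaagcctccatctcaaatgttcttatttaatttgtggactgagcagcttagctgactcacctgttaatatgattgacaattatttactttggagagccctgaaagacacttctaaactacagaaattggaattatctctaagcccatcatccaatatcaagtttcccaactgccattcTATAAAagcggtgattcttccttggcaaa
Bpifb5: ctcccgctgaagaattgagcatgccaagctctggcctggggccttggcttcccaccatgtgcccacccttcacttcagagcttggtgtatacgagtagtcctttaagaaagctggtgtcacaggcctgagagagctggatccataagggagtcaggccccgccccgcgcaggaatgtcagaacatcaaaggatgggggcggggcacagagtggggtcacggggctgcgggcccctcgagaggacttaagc
The windows of Bpifb9a and Bpifb9b were 89.1% identical, with an edit distance of 28 over 258 aligned columns. These 2 windows end at different points relative to TATAAA, and the gaps at their ends count as differences in that value. The other 52 pairings of windows of different members were 47.5% to 54.3% identical. TATAAA, the usual core of a TATA box, was searched on both strands and was found once each before Bpifb9b, Bpifb9a and Bpifa1 and before no other member, against 12.4% of the 32851 promoters searched. Counted from the RefSeq start, where the windows end, it began 47 bases upstream in Bpifb9b, 54 in Bpifb9a and 29 in Bpifa1. The GENCODE gene start differs for Bpifb9a and Bpifb9b. Counted from that start, it began 30 bases upstream in Bpifb9b and 29 bases upstream in both Bpifb9a and Bpifa1. CCAAT was found 2 times each before Bpifb4 and Bpifa1 (33.8% of promoters held it). TGTTTAC and AACAAT were found before none of the 9 (3.17% and 9.42% of promoters). Such matches describe the letters in these windows and are not binding sites.

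Bpifb9a and Bpifb9b could not be cleanly separated. Their longest GENCODE M21 transcripts, 2065 and 2067 bases, were 99.2% identical with an edit distance of 16, whereas the other 35 pairs of members were at most 56.2% identical. Of the words of 31 bases in Bpifb9b, 19.5% occurred in no other gene, and of those in Bpifb9a 27.8%. For the other 7 members the share was 99.7% to 100%. The reads were assigned to another transcript set, with 2135 bases for Bpifb9a and 2083 for Bpifb9b, whose words were not compared. The division of counts between Bpifb9a and Bpifb9b is an estimate made by kallisto, and their sum is given beside the separate values.

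The 6 libraries held 31125410 to 41636996 estimated counts, with size factors of 0.907 to 1.147. Rtp1 and Rtp2, the targeted genes, matched the labels, with 12283 to 26518 and 6491 to 9968 counts in wild-type mice against 86 to 111 and 30 to 55 in RTP1,2DKO mice. Of 9 markers of mature olfactory sensory neurons, 8 passed the threshold downward in RTP1,2DKO (edgeR adjusted p under 0.05, against 3.15% of all tested genes), with a median log2 fold change of -1.09 over the 9. The other, Gng13, was at -0.76 (edgeR adjusted p = 0.0857, and 0.0288 with the replicate number as a block). Wild-type mouse 3 stood apart by salivary gland transcripts. Its count for Bpifa2, the parotid secretory protein and a neighbour of the members in the same gene run, was 27830 against 17 to 50 in the other mice, and its count for Amy1, salivary amylase, was 13803 against 109 to 260. The values of the members without that mouse are given below. Xist was high in replicate 2 of each genotype (77210 and 76124 counts) and at 110 to 153 counts in the other mice, and the methods give 1 female per genotype.

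Bpifb9b was the most abundant transcript of the dissected mucosa by count. The wild-type mice had estimated counts of 3971550, 1599760 and 4689320, and the RTP1,2DKO mice had 2056300, 5391090 and 5062600. This was the highest count of any gene in all 6 mice. As a share of the library, Bpifb9b took 11.7%, 4.81% and 13.7% in the wild-type mice and 6.61%, 12.9% and 13.2% in the RTP1,2DKO mice. Wild-type mouse 2 and RTP1,2DKO mouse 1 were the low mice, 1 in each genotype, and the groups overlapped. The mean over all mice was 10.5% ± 3.82 (SD, n = 6), and the highest share was 2.86 times the lowest. In TPM the gene did not lead everywhere. TPM here divides by kallisto's effective length, which was 1527 of 2083 bases for Bpifb9b and 553 of 1109 for Bpifa1. Division by it raises short transcripts more than division by full length would. By TPM, Bpifb9b had rank 1 in 1 mouse, wild-type mouse 1, rank 2 in 4 mice and rank 3 in RTP1,2DKO mouse 1. In the other 5 mice rank 1 was held by Obp1b, an odorant-binding protein, at 56846 to 113988 TPM. Whether Obp1b would also lead by full transcript length was not examined.

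Together the 9 members took 14.2%, 6.31% and 16.5% of the wild-type libraries and 8.57%, 15.8% and 15.8% of the RTP1,2DKO libraries. The same 2 mice were low as for Bpifb9b alone. The mean share was 12.3% ± 5.35 for wild-type and 13.4% ± 4.19 for RTP1,2DKO mice (SD, n = 3 each), a difference of 1.07 percentage points that was smaller than either SD (two-sided exact permutation test, p = 0.7, where the smallest p that 3 mice against 3 allow is 0.1). For Bpifb9b alone the group means were 10.1% ± 4.69 and 10.9% ± 3.74 (SD, n = 3 each; exact permutation p = 0.7). On the TPM scale both differences had the opposite sign, at -0.528 percentage points for the members and -0.388 for Bpifb9b (exact permutation p = 0.8 for each). The 95% Wilson interval of a share was at most 0.0125 percentage points to either side. That interval covers counting error only, and the range between mice was far wider.

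**Figure D1:**
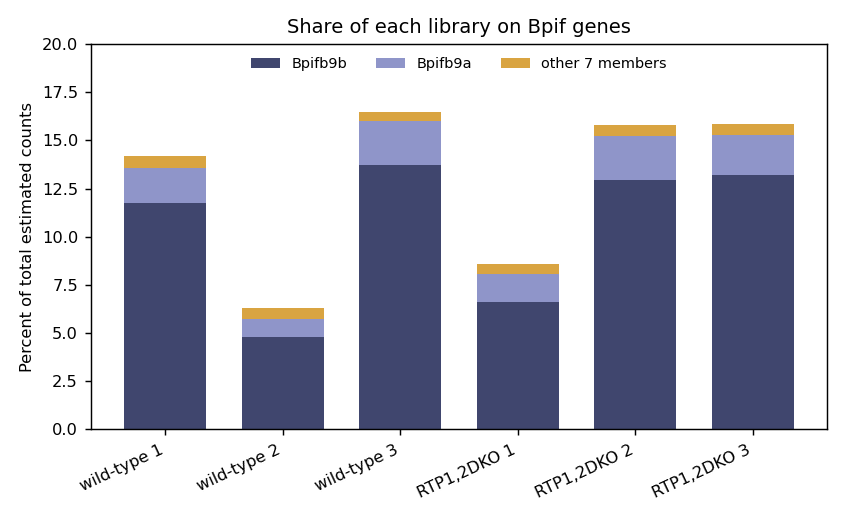
Percent of all estimated counts of each mouse that fell on Bpifb9b, Bpifb9a and the other 7 members, stacked, with 1 bar per mouse and a vertical axis from 0. The bars of wild-type mouse 2 (6.31%) and RTP1,2DKO mouse 1 (8.57%) are the shortest, the other 4 stand between 14.2% and 16.5%, and the band of the other 7 members changes little.

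Within the family, Bpifb9b held 82.5%, 76.2% and 83.3% of the members' counts for the wild-type mice and 77.1%, 81.9% and 83.3% for the RTP1,2DKO mice. The share was lowest in the 2 mice with the least Bpifb9b. The group means were 80.7% ± 3.89 and 80.8% ± 3.28 (SD, n = 3 each; exact permutation p = 1). Bpifb9a and Bpifb9b combined made up 13.6%, 5.75% and 16.0% of the wild-type libraries and 8.07%, 15.2% and 15.3% of the RTP1,2DKO libraries. The remaining 7 members took only 0.505% to 0.631% in any mouse.

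The levels of the members in TPM, per effective length, ranged widely, and they are given here in descending order. Bpifb9b had a mean of 68727 TPM (range 36967 to 93433 over 6 mice), and Bpifb9a followed at 11506 TPM (7033 to 14239), with no overlap between their ranges. Bpifb9b stood 4.68 to 6.56 times above Bpifb9a within a mouse, subject to the uncertain division of their reads. Bpifa1 came next with 5760 TPM (4201 to 8311). Its range overlapped that of Bpifb9a, although Bpifb9a was above it within each of the 6 mice, by 1.02 times in wild-type mouse 2 and by 3.06 times in wild-type mouse 3.

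A middle tier lay well below. Bpifb4 averaged 650 TPM (497 to 902), Bpifb5 475 TPM (243 to 604), Bpifb6 431 TPM (369 to 535) and Bpifb3 387 TPM (312 to 460). Neighbours in this order had overlapping ranges and their order was not resolved, except that Bpifb6 was above Bpifb3 in 6 of 6 mice. Bpifb1, the mucous cell product, averaged 11.5 TPM (5.02 to 26.1), 33.6 times below Bpifb3. Bpifb2 was near the limit of detection at 0.338 TPM (0.0388 to 0.724), from 2 to 25 counts per mouse.

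**Figure D2:**
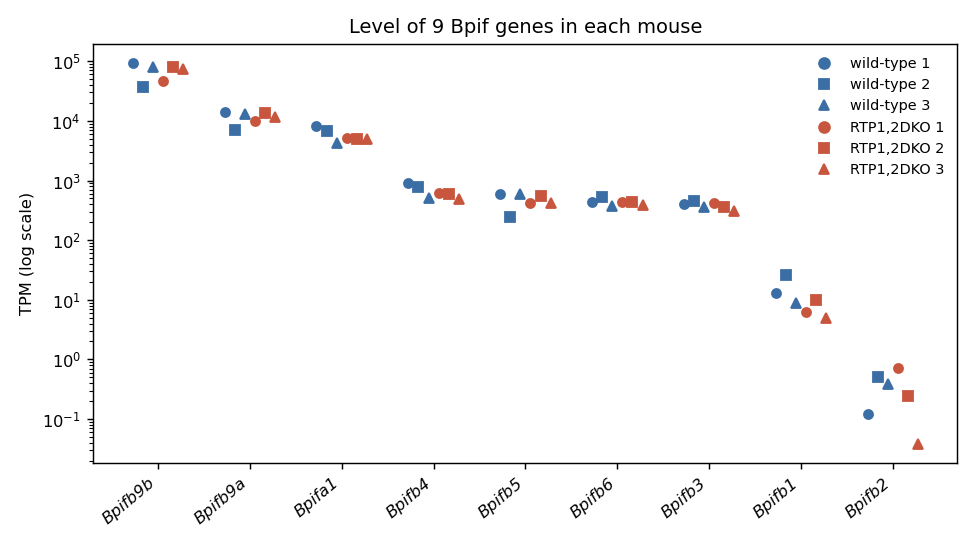
TPM on a log axis for each of the 9 members, ordered by mean level, with 1 point per mouse, blue for wild-type and red for RTP1,2DKO, and the marker shape giving the replicate number. The levels step down from Bpifb9b at 68727 TPM to Bpifb2 at 0.338 TPM, and the red and blue points overlap for every gene.

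No member passed the threshold between genotypes in edgeR's quasi-likelihood test with Benjamini-Hochberg adjustment over 22152 genes (0 of 9 at an adjusted p under 0.05, where 3.61% of all tested genes passed, 0.46% upward and 3.15% downward). At an unadjusted p under 0.05 there was 1 member, Bpifb1 (11.8% of all genes), and DESeq2's Wald test also called 1, the same gene, where it called 5.66% of the 19559 genes it gave an adjusted p. The genotype ranges of normalized counts overlapped for all 9 members, whereas 16.4% of tested genes had groups that did not overlap. The median log2 fold change of the members was 0.06, against 0.02 over all genes tested.

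For Bpifb9b the log2 fold change of RTP1,2DKO over wild-type was 0.13 (SE 0.37, 95% interval -0.67 to 0.94, edgeR adjusted p = 0.951). Its normalized counts, divided by the size factors, were 4108253, 1526336 and 5170209 in the wild-type and 2166808, 4701418 and 4961082 in RTP1,2DKO. Each genotype contained 1 low mouse. Bpifb9a differed by 0.23 (SE 0.30, interval -0.42 to 0.88, adjusted p = 0.850), and the sum of Bpifb9a and Bpifb9b by 0.15 (SE 0.36, adjusted p = 0.941). Bpifb5 differed by 0.12 (SE 0.34, interval -0.63 to 0.87, adjusted p = 0.951). These intervals are wide, so the absence of a call does not show equal levels. Without wild-type mouse 3, the library with salivary transcripts, the log2 fold changes were 0.49 for Bpifb9b, 0.56 for Bpifb9a and 0.56 for Bpifb5. Without wild-type mouse 2, the mouse with the lowest levels, they turned negative, at -0.23, -0.090 and -0.26. None passed the threshold in either case.

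The 4 members of intermediate or high level with little spread were estimated more tightly. The log2 fold change was -0.08 for Bpifa1 (SE 0.15, interval -0.41 to 0.26, edgeR adjusted p = 0.925) and -0.09 for Bpifb4 (SE 0.13, interval -0.38 to 0.20, adjusted p = 0.875). It was 0.06 for Bpifb3 (SE 0.13, interval -0.21 to 0.33, adjusted p = 0.931) and 0.15 for Bpifb6 (SE 0.13, interval -0.14 to 0.44, adjusted p = 0.773). The counts of Bpifa1 were 127942, 107951 and 87439 in wild-type mice and 85261, 123146 and 119795 in RTP1,2DKO mice, and those of Bpifb6 were 13320, 16849, 15421, 14166, 21352 and 18768 in the same order. Bpifb6 was slightly higher in RTP1,2DKO in each of the 3 same-numbered pairs, by 1.08, 1.16 and 1.08 times in normalized counts, within the error of the fit.

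Bpifb1 was lower in RTP1,2DKO in every pair of mice, but its call depended on the model. It had 401, 812 and 372 counts per wild-type mouse and 199, 480 and 244 counts per RTP1,2DKO mouse. Mouse 2 was the highest in both genotypes, and the groups overlapped because RTP1,2DKO mouse 2 exceeded wild-type mice 1 and 3. The normalized level in RTP1,2DKO was 0.506, 0.540 and 0.583 of that of the wild-type mouse with the same number. The log2 fold change was -0.88 (SE 0.29, interval -1.50 to -0.26, edgeR adjusted p = 0.159). With the replicate number as a block it was -0.88 (SE 0.14, interval -1.20 to -0.57, adjusted p = 0.00305, in a fit that called 4.57% of all genes), and without RTP1,2DKO mouse 2 it was -1.25 (adjusted p = 0.0196). Without wild-type mouse 2 it shrank to -0.51 (adjusted p = 0.479). Leaving out each of the 5 mice other than RTP1,2DKO mouse 2 did not bring Bpifb1 past the threshold. Muc5ac, a mucin of surface mucous cells, was also highest in mouse 2 of both genotypes, with counts of 3478, 5865 and 2339 in wild-type mice and 2464, 6186 and 1764 in RTP1,2DKO mice, and its log2 fold change was -0.28 (SE 0.35, edgeR adjusted p = 0.840). Mouse 2 was also the one with high Xist in each genotype. The part of mouse 2's sex or mucous cell content in the Bpifb1 result was not tested.

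Bpifb2 had 4, 17 and 17 counts in wild-type mice and 25, 13 and 2 in RTP1,2DKO mice. At this depth a genotype difference was not detectable (log2 fold change 0.01, SE 0.86, interval -1.85 to 1.87).

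**Figure D3:**
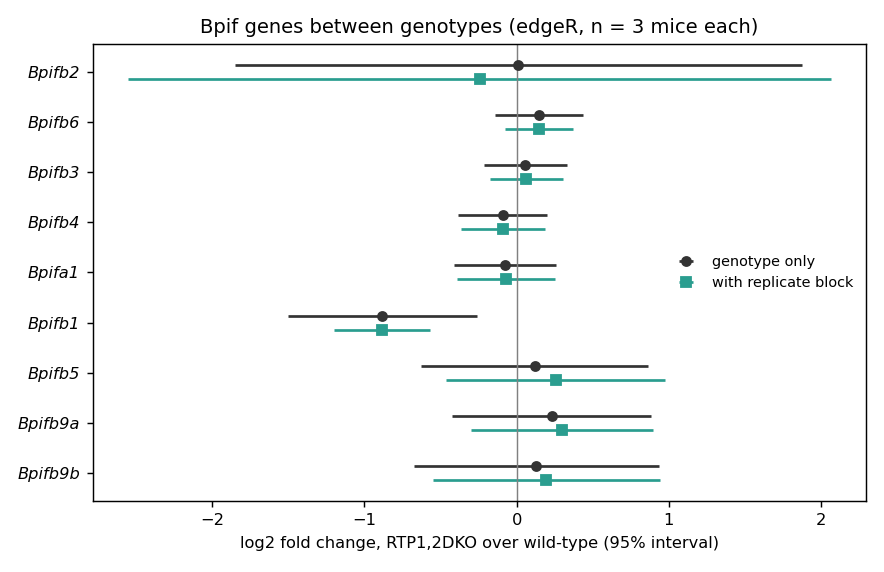
The log2 fold change of RTP1,2DKO over wild-type for the 9 members in chromosomal order, with 95% intervals from edgeR, for the model with genotype only (circles) and with the replicate number as a block (squares), 3 mice per genotype. All intervals cross 0 except those of Bpifb1, whose interval narrows from -1.50 to -0.26 down to -1.20 to -0.57 with the block.

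For every member except Bpifb1 the spread between mice of a genotype was larger than the difference between genotypes. Among the well-measured members it was widest for Bpifb9b, Bpifb5 and Bpifb9a. The SD of log2(normalized count + 1) between mice of a genotype was 0.81 for Bpifb9b, 0.75 for Bpifb5 and 0.63 for Bpifb9a. Among the 13900 genes with a mean of at least 100 normalized counts, whose median SD was 0.18 and whose 95th percentile was 0.44, these were at percentiles 99.0, 98.9 and 98.3. Bpifb1 was at 0.53 (percentile 97.2). The remaining well-measured members were ordinary, with SDs of 0.22 for Bpifa1, 0.17 for Bpifb6, 0.16 for Bpifb4 and 0.13 for Bpifb3, at percentiles 27.8 to 64.4.

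**Figure D4:**
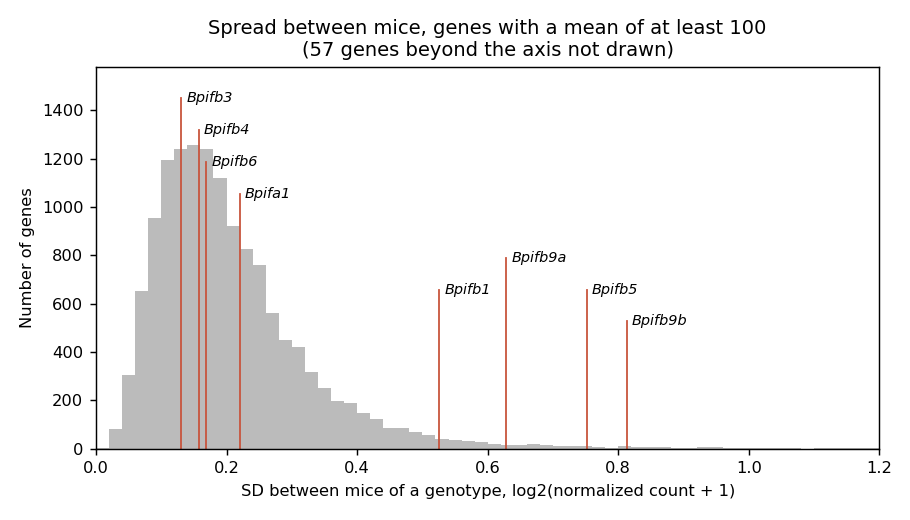
Number of genes by the SD between mice of a genotype, on the log2(normalized count + 1) scale, for the 13900 genes with a mean of at least 100 (grey bars, of which 57 genes lie beyond the axis), with 8 members marked by red lines whose heights carry no meaning. Bpifb3, Bpifb4, Bpifb6 and Bpifa1 lie in the body of the distribution at 0.13 to 0.22, and Bpifb1, Bpifb9a, Bpifb5 and Bpifb9b in its upper tail at 0.53 to 0.81.

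The members fell into sets with different mouse-to-mouse patterns, and these followed chromosomal order in part. Bpifb5, Bpifb9a and Bpifb9b, the last 3 genes of the run, were low in wild-type mouse 2 and RTP1,2DKO mouse 1 and high in the other mice. Bpifb5 had 18163, 7442 and 24349 counts in wild-type mice and 13334, 27034 and 20050 in RTP1,2DKO mice, and Bpifb9a had 625866, 314731 and 763741 against 454699, 954025 and 803252. After centring each gene on its mean log2 level, the root-mean-square difference between 2 genes over the 6 mice was 0.15 to 0.22 log2 units within this trio. Bpifb5 shared none of its words of 31 bases with another gene. Bpifb6, Bpifb3, Bpifb4 and Bpifa1 differed among themselves by 0.09 to 0.26 and from the trio by 0.48 to 0.63. The summed normalized count of the trio varied 3.29 times between the lowest and highest mouse, and that of these 4 genes 1.33 times.

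Finer likenesses were present within the stable set. Bpifb4 and Bpifa1 differed by 0.09, both being highest in wild-type mouse 1 and lowest in RTP1,2DKO mouse 1. Bpifb3 and Bpifb6 differed by 0.10, both being lowest in wild-type mouse 1. Bpifb1 followed neither set and differed from the other 7 well-measured members by 0.59 to 1.06, with its highest value in wild-type mouse 2, where the trio was lowest. These are descriptions over 6 mice that share libraries, and they were not tested.

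**Figure D5:**
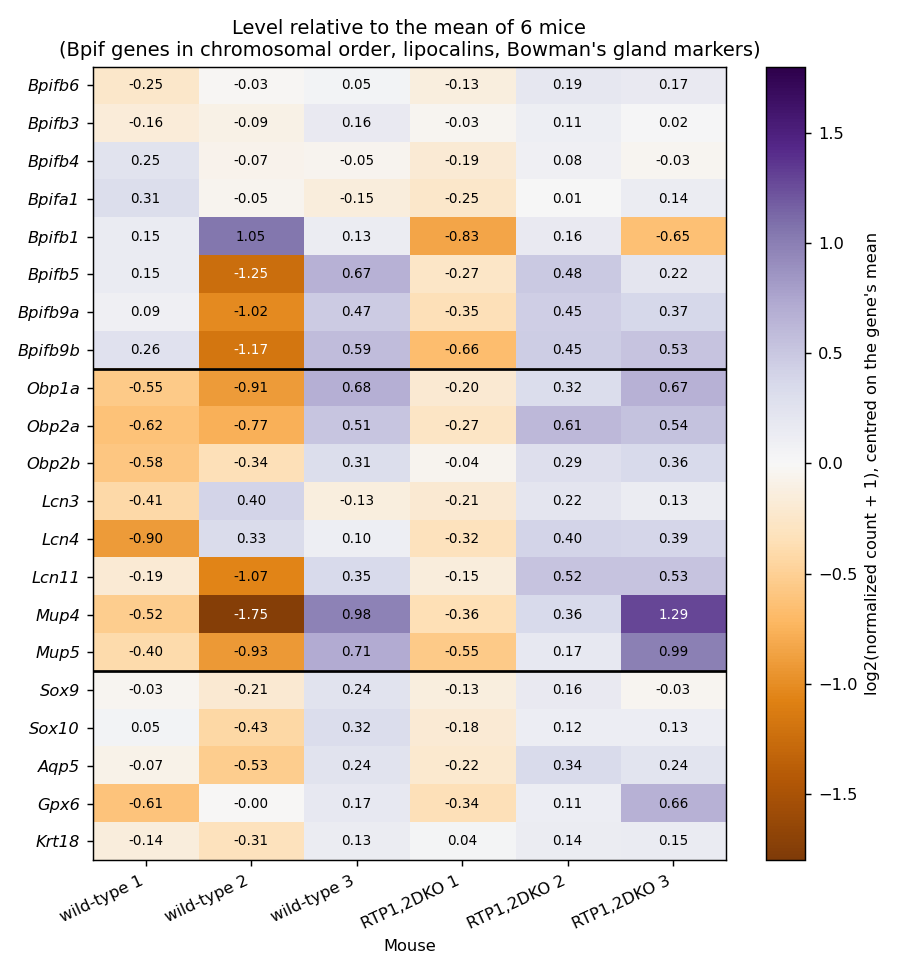
Level in each mouse relative to the gene's mean, as centred log2(normalized count + 1), for 8 members in chromosomal order (top), the 8 listed lipocalins (middle) and the 5 Bowman's gland markers (bottom), with orange for below and purple for above the mean. Bpifb5, Bpifb9a and Bpifb9b are lowest in wild-type mouse 2 (-1.25, -1.02 and -1.17), whereas Bpifb6, Bpifb3, Bpifb4 and Bpifa1 stay within 0.31 of their mean. Lcn3 (0.40) and Lcn4 (0.33) are above their mean in that mouse.

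Outside the family, the 10 genes whose pattern over the 6 mice came closest to that of Bpifb9b had root-mean-square differences of 0.18 to 0.28 log2 units, among 13900 genes. They were Cabs1 (0.18), Rasal1 (0.20), Odam (0.21), Barx2 (0.25), 1700066N21Rik (0.26), Prom2 (0.26), Esp8 (0.27), Aass (0.28), Chrm1 (0.28) and Lrrc26 (0.28). Cabs1 had 11550, 5173 and 15368 normalized counts in wild-type mice and 8122, 18571 and 18549 in RTP1,2DKO mice. Chrm1, the muscarinic acetylcholine receptor M1, had 358, 150 and 345 against 203, 278 and 334. Both were lowest in wild-type mouse 2 and, within RTP1,2DKO, in mouse 1.

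Odorant-binding lipocalins of the nose shared this pattern in part. Of the 8 genes from a list of odorant-binding lipocalins, small carriers of odorants and pheromones, that had counts, 6 were below their own mean in both wild-type mouse 2 and RTP1,2DKO mouse 1, which held for 22.9% of all genes with a mean of at least 100, and 5 were lowest in wild-type mouse 2 (18.0% of all genes). Lcn11, a lipocalin, differed from Bpifb9b by 0.30, and Obp1a by 0.40. Lcn3 and Lcn4 went the other way in wild-type mouse 2, at 0.40 and 0.33 above their means. None of the 8 passed the threshold between genotypes in edgeR, with 0 of 8 at an unadjusted p under 0.05 (11.8% of all genes). Their log2 fold changes were 0.06 to 0.60, with a median of 0.39. With the block 0 of 8 passed after adjustment, but 6 of 8 had an unadjusted p under 0.05, all upward (5.66% of all tested genes), and the smallest adjusted p was 0.116, for Obp2b. Obp1b, not on the list and added after its values were seen, had 366556, 279425 and 859836 normalized counts in wild-type mice and 388851, 647145 and 780266 in RTP1,2DKO mice, and was lowest in the same 2 mice within each genotype (log2 fold change 0.27, edgeR adjusted p = 0.847).

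Markers of Bowman's glands, the mucus glands of the olfactory mucosa, moved with the trio in part. Of 5 markers (Sox9, Sox10, Aqp5, Gpx6 and Krt18), 4 were below their mean in both wild-type mouse 2 and RTP1,2DKO mouse 1. This count includes Gpx6, which was only at -0.003 log2 units in wild-type mouse 2. All but Gpx6, 4 markers, were lowest in wild-type mouse 2. Over all genes with a mean of at least 100 the shares were 22.9% and 18.0%. Aqp5, a water channel of gland cells, had 2602, 2053 and 3046 counts in wild-type mice and 2315, 4127 and 3406 in RTP1,2DKO mice. The markers' summed normalized count was 59235, 81202 and 94959 in wild-type mice and 68722, 91749 and 126373 in RTP1,2DKO mice, and none was at 0. The sum was lowest in mouse 1 of each genotype and so did not follow the trio in the wild-type. Gpx6 made up most of it, at 46236, 70198 and 79148 in wild-type mice, while the other 4 markers were each lowest in wild-type mouse 2. Gpx6, a glutathione peroxidase with the highest count of the 5, was close to its mean in wild-type mouse 2 and 0.61 log2 units below it in wild-type mouse 1. None of the 5 passed the threshold in edgeR, with log2 fold changes of -0.01 to 0.31. At an unadjusted p under 0.05 there were 0 (11.8% of all genes), and 1 with the block. The part of gland content in the members' variation was not tested.

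Markers of sustentacular cells stayed near the shares of all genes, and those of red blood cells moved in another way. Of 7 sustentacular cell markers, enzymes and structural proteins of the supporting cells, 2 were below their mean in both low mice. None was lowest in wild-type mouse 2. Over all genes with a mean of at least 100 the shares were 22.9% and 18.0%, so these counts do not set the markers apart. Their summed normalized counts were 399085, 518991 and 439004 in wild-type mice and 412234, 464485 and 475259 in RTP1,2DKO mice. The sum was highest in wild-type mouse 2 but, within RTP1,2DKO, lowest in mouse 1 as for the trio. Ugt2a1 made up most of it, at 222627, 316701 and 218447 in wild-type mice. Among wild-type mice, Sec14l3, Ermn and Cbr2 were also highest in mouse 2, but Cyp2a5, Cyp2g1 and Cyp1a2 in mouse 3. Red blood cell markers were highest in the mouse that was low for the trio within each genotype, with summed normalized counts of 58008, 94622 and 74708 in wild-type mice and 170236, 122927 and 92498 in RTP1,2DKO mice. Hbb-bt, a beta globin, was the 1 of 7 blood markers that passed the threshold (log2 fold change 0.88, edgeR adjusted p = 0.0485, and 0.84 with the block, adjusted p = 0.0506). The median of the 7 was 0.76, and 6 of 7 had an unadjusted p under 0.05 (11.8% of all genes). The part of blood content in the trio's low values was not tested.

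Of 20 further gland and airway secretory genes, 18 had counts and 0 passed the threshold, with a median log2 fold change of -0.02. At an unadjusted p under 0.05 there were 4 of the 18 (11.8% of all genes). Scgb1a1, the club cell secretory protein, and Tff3, a trefoil peptide of mucous cells, were at 0 estimated counts in all mice. Their lengths in the transcript set were not examined, and a 0 here does not show that a gene was silent. With the block, 1 passed, Chil4, a chitinase-like protein. Its counts were 1715, 837 and 2468 in wild-type mice and 1422, 252 and 344 in RTP1,2DKO mice, with a log2 fold change of -1.69 with the block (edgeR adjusted p = 0.0226) and -1.37 without it (adjusted p = 0.353). As a list they did not share the trio's pattern. Of the 17 with a mean of at least 100, 5 were below their mean in both low mice (22.9% of all such genes). Only 2 of the 17 were lowest in wild-type mouse 2 (18.0%). Pigr, the receptor that carries antibodies into secretions, was the closest of the list to Bpifb9b, at a difference of 0.31. It had 5690, 3190 and 5687 counts in wild-type mice and 3975, 6182 and 6538 in RTP1,2DKO mice. Of 7 respiratory ciliated cell markers 0 passed (1 with the block, Ccdc39), and 3 were at an unadjusted p under 0.05 (11.8% of all genes). Below their mean in both low mice were 3 of the 7 (22.9% of all genes with a mean of at least 100). Of 2 vomeronasal neuron markers, Trpc2 and Calr4, 0 passed and 1 was at an unadjusted p under 0.05 (11.8% of all genes). That was Trpc2, higher in RTP1,2DKO (log2 fold change 0.46, edgeR adjusted p = 0.122).

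The other relatives of the family had 0 to 1201 counts per mouse, apart from Bpifa2 in wild-type mouse 3. Of 8 other BPI-fold or BPI-related genes 0 passed the threshold. At an unadjusted p under 0.05 there were 2 (11.8% of all genes), Bpifa2 and Bpifa5, the latter at 0 to 10 counts per mouse. Pltp, the phospholipid transfer protein, had 801 to 1201 counts per mouse and a log2 fold change of 0.09, and Lbp, the lipopolysaccharide-binding protein, had 487 to 718 counts and 0.12. Bpifc had 15 to 34 counts. Bpi itself had 4 counts in wild-type mouse 1 and 0 in the other 5, Bpifa3 had 1 count in all, Bpifa5 had 0 in wild-type mice and 1, 2 and 10 in RTP1,2DKO mice, and Bpifa6 had 2 to 17. Bpifa2 had a log2 fold change of -7.93 (edgeR adjusted p = 0.0658) that rested on wild-type mouse 3, and without that mouse it was 1.08 (adjusted p = 0.365).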

How the data were processed

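Stranded RNA-Seq libraries of 3 mice per genotype were analysed. The authors quantified the reads with kallisto, with mm10 named in the submitters' processing notes, and deposited, per transcript and mouse, TPM values and estimated counts. The kallisto version is not given in the sources used here. Estimated counts were summed per gene, by removing the trailing number of a transcript's name, and rounded. TPM values were used only for levels between genes.

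Genotypes were compared by the quasi-likelihood test of edgeR 4.0.16 with median-of-ratios size factors (DESeq2 1.42.0, R 4.3.3), over the 22152 genes that reached 1 count in any mouse, with Benjamini-Hochberg adjustment at 0.05. Shares were compared by exact permutation tests. The labels give only replicate numbers, and the methods name sex-matched littermates without tying a number to a litter. Same-numbered mice had correlated deviations of 0.139, 0.179 and 0.103 over 18133 genes, and on this basis the numbers were treated as pairs. The margin was thin. Mice of different numbers had correlations of -0.219 to 0.0934, the highest for wild-type mouse 1 with RTP1,2DKO mouse 3. The fit without the replicate number was the main one, and the fit with it as a block was an alternative. The study's methods name edgeR and DESeq size factors and do not state whether pairs entered the model. Each library was 1 mouse. Patterns were compared on log2(normalized count + 1), for genes with a mean of at least 100. Gene positions and the transcripts compared by identity and words came from GENCODE M21 (GRCm38). Promoters came from RefSeq (GRCm38.p6), with all 9 members matched. Python 3.11.15, numpy 2.4.6, pandas 2.3.3, scipy 1.17.1 and edlib 1.3.9.post1 were used. The fits were tested on simulated data. Alternatives were TMM, scaling to the total count, filterByExpr, DESeq2's Wald test, TPM shares and each mouse left out.

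The members, lists and rules were chosen with earlier results of these data known. The genes named were the 9 members, the listed markers and the 10 genes nearest to Bpifb9b. Bpifa2, Amy1, Cst10, Smr3a, Xist and Obp1b were added after their values were seen.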

Additional observations from a re-analysis of the deposited data

How the results depend on the processing

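Shares per mouse of Bpifb9b and of all members rested on which mice were low. Leaving out 1 mouse at a time, the RTP1,2DKO minus wild-type difference ranged from -1.95 to 3.49 percentage points for all members, from -1.82 to 2.98 for Bpifb9b, and from -2.16 to 1.92 for Bpifb9b among the members' counts, changing sign for 3 mice in each case. With shares of TPM the first 2 were -0.528 and -0.388, opposite in sign to the main values. Without Bpifb9b in members and total, the members' difference was 0.286. The log2 fold changes with each mouse left out ranged from -0.23 to 0.49 for Bpifb9b, -0.090 to 0.56 for Bpifb9a, -1.25 to -0.51 for Bpifb1, -0.94 to 0.52 for Bpifb2, -0.0075 to 0.16 for Bpifb3, -0.16 to 0.017 for Bpifb4, -0.26 to 0.56 for Bpifb5, 0.07 to 0.24 for Bpifb6, -0.17 to 0.073 for Bpifa1 and -8.51 to 1.08 for Bpifa2. Bpifb1 passed the threshold with DESeq2 (-0.88, adjusted p = 0.0402), with the replicate block (-0.88, adjusted p = 0.00305) and without RTP1,2DKO mouse 2 (-1.25), so the count of members called was 1 in each and 0 to 1 with mice left out. The replicate block turned Bpifb2 to -0.24 without a call, and Bpifb1 was the only member whose call it changed. Over all genes, 799 passed, 1012 with the block, 1108 with DESeq2 and 598 to 777 with a mouse left out. Of 101 member values under alternatives, 85 kept direction and side of the threshold, 13 changed direction and 3 gained a call, and the cause of those changes was not tested. Counts of 2 to 25 per mouse limited what could be said of Bpifb2.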

Other observations

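Salivary transcripts in wild-type mouse 3 extended beyond Bpifa2. Normalized counts of Bpifa2 were 766 times the median of the other 5 mice, those of Amy1, salivary amylase, 92.2 times, and those of Smr3a, a submandibular gland transcript, 18.6 times. Cst10 had 641 counts in that mouse and 0 to 5 in the others. Of the members, Bpifb9b, Bpifb9a, Bpifb5 and Bpifb3 had their highest normalized count in the same mouse, while Bpifa1 had its lowest but 1, at 96406 normalized counts.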
